A study of Homo sapiens with 2 samples.

Results

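Genes named LINC followed by a number are annotated long intergenic non-coding RNA genes, which the nomenclature numbers when no function has earned them a name. They were described here in Ca9-22 cells, an established line from a gingival carcinoma, stably transduced with a RUNX2 vector or with an empty vector, both selected with blasticidin. RUNX2 is a runt-domain transcription factor known as the master regulator of osteoblasts. With 1 array for each vector nothing is replicated, so no difference was tested, and the small number of arrays limits how precise any value can be. A member is a LINC gene with a probe set of its own symbol that exceeded the median of all probe sets on 1 array or more. That median is called the floor below, and it was 51.8 on the array labelled RUNX2 after scaling and 55.3 on the empty vector array. Of 840 LINC genes with such a probe set, 153 were members, among 12729 measured genes in all, and the brightest probe set stood for its gene. The members were thus chosen by their levels on these arrays, and their brightness is a description and not a finding.

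Long intergenic non-coding RNAs are transcribed by RNA polymerase II, capped and usually spliced and polyadenylated, but carry no long open reading frame. Most are less abundant than messenger RNAs and more restricted to particular cell types. Some act on the gene next to them, some bind chromatin regulators, RNAs or proteins elsewhere, and a few encode small peptides. Several have been studied in squamous carcinoma, among them LINC01503, which is driven by a TP63-bound super-enhancer.

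The array labelled RUNX2 did not bear its label out in every RUNX2 probe set. Of its 6 probe sets, 3 were above the floor. The first read 854 on the array labelled RUNX2 and 204 on the empty vector array, and the second read 353 and 102. The third and brightest by mean level went the other way, at 433 on the array labelled RUNX2 and 1746 on the empty vector array. Each direction below therefore rests on the labels alone. The epithelial markers KRT5 and CDH1 were bright, at 12580 and 3580 on the array labelled RUNX2 and 8842 and 3545 on the empty vector array. KRT14 was higher, at 1579 on the array labelled RUNX2 and 586 on the empty vector array, and EPCAM was lower, at 2666 and 4930 on the same arrays. SFN and DSG3 were also above the floor. Of the 5 fibroblast markers, COL1A1 was read at 1553 on the array labelled RUNX2 and 1937 on the empty vector array, and the other 4 were below the floor on both. The 2 leukocyte markers with a probe set of their own were below the floor, at up to 26.1 on the array labelled RUNX2 and 35.0 on the empty vector array. Of 3 endothelial markers, CDH5 was below the floor, and PECAM1 and VWF were just above it, at 55.5 and 55.2 on the array labelled RUNX2 and 69.4 and 75.02 on the empty vector array.

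By its brightest probe set, no LINC gene was 1.5-fold or more higher in the array labelled RUNX2, and most were somewhat lower. A dimmer probe set of LINC00667 passed 1.5-fold higher, with a log2 ratio of 0.63. At 2-fold, 7 of 153 members were lower and 0 were higher, where 1.47% of all measured genes were lower and 1.41% higher by the same rule. At 1.5-fold, 21 members were lower and 0 higher, against 6.86% and 5.77% of all measured genes. Between these, 14 members were 1.5-fold to 2-fold lower, 46 were 1.2-fold to 1.5-fold lower, 80 lay within 1.2-fold, and 6 were 1.2-fold to 1.5-fold higher. The median log2 ratio, RUNX2 over empty vector, was -0.22 over the members and -0.06 over all measured genes, and 127 of 153 members lay below 0, against 57.4% of all measured genes. Scaling to equal medians instead left 109 of 153 members below 0, and turned the 180 higher and 187 lower of all measured genes at 2-fold into 229 higher and 137 lower. With 1 array per group, none of these shares carries a replicate error. Members with 2 or more measured probe sets showed a spread between the probe sets of 1 gene with an SD of 0.32 on the log2 scale.

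**Figure D1:**
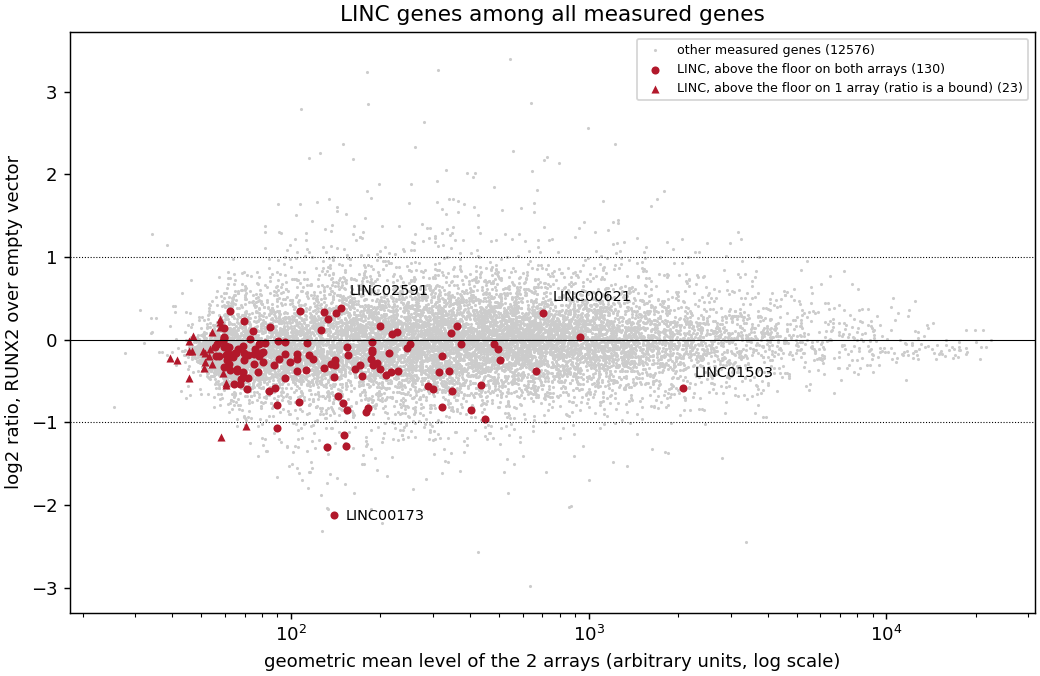
Log2 ratio of each measured gene (y axis, array labelled RUNX2 over empty vector array) against its geometric mean level on both arrays (x axis, arbitrary units, log scale), with LINC genes in red and dotted lines at 2-fold. Most LINC genes lie at the dim end, 127 of 153 below the zero line and 26 above it, with ratios from -2.12 for LINC00173 to 0.39 for LINC02591, with LINC01503 as the brightest.

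The floor bears on part of this picture. Of the 153 members, 130 exceeded the floor on both arrays, 17 on the empty vector array only and 6 on the array labelled RUNX2 only. Readings under the floor were set to the floor, which makes the ratio a bound. The 17 had bounds from -1.17 to -0.11, since a gene that passed on the empty vector array alone had to come out lower. The 6 had bounds from -0.01 to 0.25. Among the 130 members above the floor on both arrays, 5 were at least 2-fold lower and 0 higher, where 1.48% of all such genes were lower and 1.44% higher. At 1.5-fold, 19 of the 130 were lower and 0 higher, against 6.84% and 5.89% of all such genes. Of the 130, 109 lay below 0 and the median log2 ratio was -0.23. The floors themselves differed by -0.09 on the log2 scale, and a floor enters the ratio of a gene only where a reading lies under it. Just inside the floor were LINC00174 (51.5 on the array labelled RUNX2 and 56.1 on the empty vector array) and LINC01279 (36.3 and 56.8 on the same arrays). Just outside it were LINC00868 (37.9 on the array labelled RUNX2 and 54.9 on the empty vector array) and LINC00494 (35.0 and 54.8). The 687 LINC genes that were not measured had a median level of 13.4 on the array labelled RUNX2 and 15.3 on the empty vector array.

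To show what stands upstream of the transcripts that differed most, the promoter windows of 4 members at least 2-fold lower are given with the window of the highest member, LINC02591, and of LINC01133, a much studied LINC gene that was below the floor in these cells. Each window runs from 250 bases before to 50 bases after the gene's start in the RefSeq table of build GRCh38.p14, 5′ to 3′ on the gene's strand, and capitals mark CG dinucleotides. The windows lie at chr12:116533172-116533471 on the plus strand (LINC00173), chr1:226083325-226083624 on the plus strand (LINC01703), chr5:180830707-180831006 on the plus strand (LINC00847), chr5:108728212-108728511 on the minus strand (LINC01023), chr1:143792245-143792544 on the plus strand (LINC02591) and chr1:159960974-159961273 on the plus strand (LINC01133).
LINC00173: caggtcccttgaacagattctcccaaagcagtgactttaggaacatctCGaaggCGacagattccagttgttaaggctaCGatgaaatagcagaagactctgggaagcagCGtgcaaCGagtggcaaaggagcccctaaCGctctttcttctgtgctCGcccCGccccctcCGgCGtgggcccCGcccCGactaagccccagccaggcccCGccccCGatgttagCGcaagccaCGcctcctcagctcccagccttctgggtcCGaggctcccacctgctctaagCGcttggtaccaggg
LINC01703: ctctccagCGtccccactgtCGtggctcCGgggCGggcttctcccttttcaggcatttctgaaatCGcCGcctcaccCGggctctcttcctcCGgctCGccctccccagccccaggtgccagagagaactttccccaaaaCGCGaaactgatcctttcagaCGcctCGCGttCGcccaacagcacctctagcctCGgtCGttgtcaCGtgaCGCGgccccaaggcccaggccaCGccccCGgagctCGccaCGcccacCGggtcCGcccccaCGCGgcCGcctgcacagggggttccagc
LINC00847: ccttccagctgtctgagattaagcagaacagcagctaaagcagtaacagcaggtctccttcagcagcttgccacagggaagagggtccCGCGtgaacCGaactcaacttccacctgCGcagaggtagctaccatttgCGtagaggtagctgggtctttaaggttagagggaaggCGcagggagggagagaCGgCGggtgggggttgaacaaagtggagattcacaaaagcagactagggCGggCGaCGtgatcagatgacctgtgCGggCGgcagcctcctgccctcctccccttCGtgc
LINC01023: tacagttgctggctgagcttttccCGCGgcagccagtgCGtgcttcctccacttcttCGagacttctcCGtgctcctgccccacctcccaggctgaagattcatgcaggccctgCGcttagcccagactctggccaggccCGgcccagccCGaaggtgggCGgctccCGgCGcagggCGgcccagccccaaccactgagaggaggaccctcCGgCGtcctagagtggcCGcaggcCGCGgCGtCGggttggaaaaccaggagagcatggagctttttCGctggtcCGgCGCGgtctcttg
LINC02591: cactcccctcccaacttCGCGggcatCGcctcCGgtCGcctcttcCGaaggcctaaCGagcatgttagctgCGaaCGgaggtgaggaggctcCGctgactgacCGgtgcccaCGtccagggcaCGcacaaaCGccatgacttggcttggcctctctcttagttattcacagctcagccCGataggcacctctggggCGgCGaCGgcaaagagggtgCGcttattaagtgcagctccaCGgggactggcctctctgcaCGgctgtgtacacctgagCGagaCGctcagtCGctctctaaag
LINC01133: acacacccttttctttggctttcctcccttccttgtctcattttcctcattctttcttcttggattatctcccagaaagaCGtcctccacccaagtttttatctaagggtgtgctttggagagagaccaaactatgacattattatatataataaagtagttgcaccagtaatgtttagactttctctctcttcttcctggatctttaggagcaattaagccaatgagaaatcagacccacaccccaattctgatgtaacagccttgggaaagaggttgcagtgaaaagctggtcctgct

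The windows of the 4 lower members held 18 (LINC00173), 29 (LINC01703), 14 (LINC00847) and 23 (LINC01023) CG dinucleotides. LINC02591 held 24, and LINC01133 held 1. LINC01133 is the low extreme among the listed LINC genes below the floor that have a window, since LINC00261 held 8, LINC00665 held 12, LINC00473 held 24 and LINC00472 held 31. CG-rich promoters are the usual kind at broadly expressed genes, and over all LINC genes with a window the measured ones held more CG dinucleotides at the median, and the groups overlap. Of the members, 110 had a window in the table, with a median of 11 CG dinucleotides and a median GC content of 59.2%. The 477 LINC genes with a window that were not measured had a median of 4 and 47.7%. Of the measured LINC genes, 60 of 110 windows held 10 or more CG dinucleotides, against 107 of 477 of those not measured and 71.3% of 15843 windows of protein coding genes. The counts are a description across genes, with no test. Within the members, the 16 that were at least 1.5-fold lower and had a window held a median of 20.5 CG dinucleotides, against 10.5 in the other 94. Members with 10 or more were also brighter, with a median level of 115 against 79.9 in those with fewer, and the part of level in this difference was not tested. Their median log2 ratios were close, at -0.23 over 60 members with 10 or more CG dinucleotides and -0.21 over 50 with fewer. At least 1.5-fold lower were 18.3% of the 60 and 10% of the 50. By the same split the shares were 22.7% and 7.81% in other long non-coding genes and 23.3% and 19.6% in antisense genes. In protein coding genes they were 5.94% and 7.33%.

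The windows were also searched for the core letters that runt-domain proteins bind, TGTGGT and TGCGGT, and for the wider TGNGGT, which contains both, on both strands. TGNGGT stood in 45 of 110 windows of members (40.9%), in 241 of 477 windows of LINC genes that were not measured (50.5%) and in 43.4% of 27305 windows of all genes. TGTGGT stood in 11 of the 110 windows and TGCGGT in 9, against 13.2% and 7.11% of all windows. In the 16 windows of members at least 1.5-fold lower, TGNGGT stood in 5, and neither TGTGGT nor TGCGGT was among the letters of any. Of the 5 windows of members at least 2-fold lower, 1 held TGNGGT. That window belongs to LINC02724 and is shown because it was the exception, at chr11:64448807-64449106 on the plus strand, with TGNGGT on either strand in capitals. Its 2 matches begin 241 and 28 bases before the gene's start. A match is a run of letters and no measured binding site.
LINC02724: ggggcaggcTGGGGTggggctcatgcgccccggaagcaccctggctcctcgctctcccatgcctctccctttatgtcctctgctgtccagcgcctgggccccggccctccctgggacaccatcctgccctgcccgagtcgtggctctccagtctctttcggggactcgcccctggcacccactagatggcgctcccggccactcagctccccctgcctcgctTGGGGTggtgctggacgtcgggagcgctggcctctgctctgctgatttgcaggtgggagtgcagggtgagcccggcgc

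The 7 members at least 2-fold lower were led by LINC00173. LINC00173, studied in granulocyte differentiation, had a level of 67.2 on the array labelled RUNX2 and 292 on the empty vector array, 4.34-fold lower, and was the member with the widest ratio. Its other probe set was below the floor on both arrays, at 20.6 on the array labelled RUNX2 and 27.7 on the empty vector array, so this ratio rests on 1 probe set. LINC01703 read 84.0 on the array labelled RUNX2 and 207 on the empty vector array, 2.46-fold lower. Its second probe set was dimmer, at 35.8 on the array labelled RUNX2 and 63.9 on the empty vector array, which bounds the log2 ratio at -0.30. LINC00663, which lies between zinc finger genes, read 98.2 on the array labelled RUNX2 and 240 on the empty vector array, 2.45-fold lower, by a probe set whose ID marks that it can match several transcripts. Its 3 other probe sets were below the floor on both arrays.

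LINC00847 read 101 on the array labelled RUNX2 and 224 on the empty vector array, 2.21-fold lower. LINC01023 was near the floor on the array labelled RUNX2, at 62.1, against 131 on the empty vector array, 2.10-fold lower. Both genes have 1 probe set on the array, so no second reading of either exists. LINC01260 and LINC02724 were below the floor on the array labelled RUNX2, at 28.9 and 46.8, against 117 and 107 on the empty vector array. Their ratios are bounds, at least 2.26-fold lower for LINC01260 and at least 2.07-fold lower for LINC02724. In a second probe set LINC01260 was also below the floor on the array labelled RUNX2 and had a bound of -0.20.

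**Figure D2:**
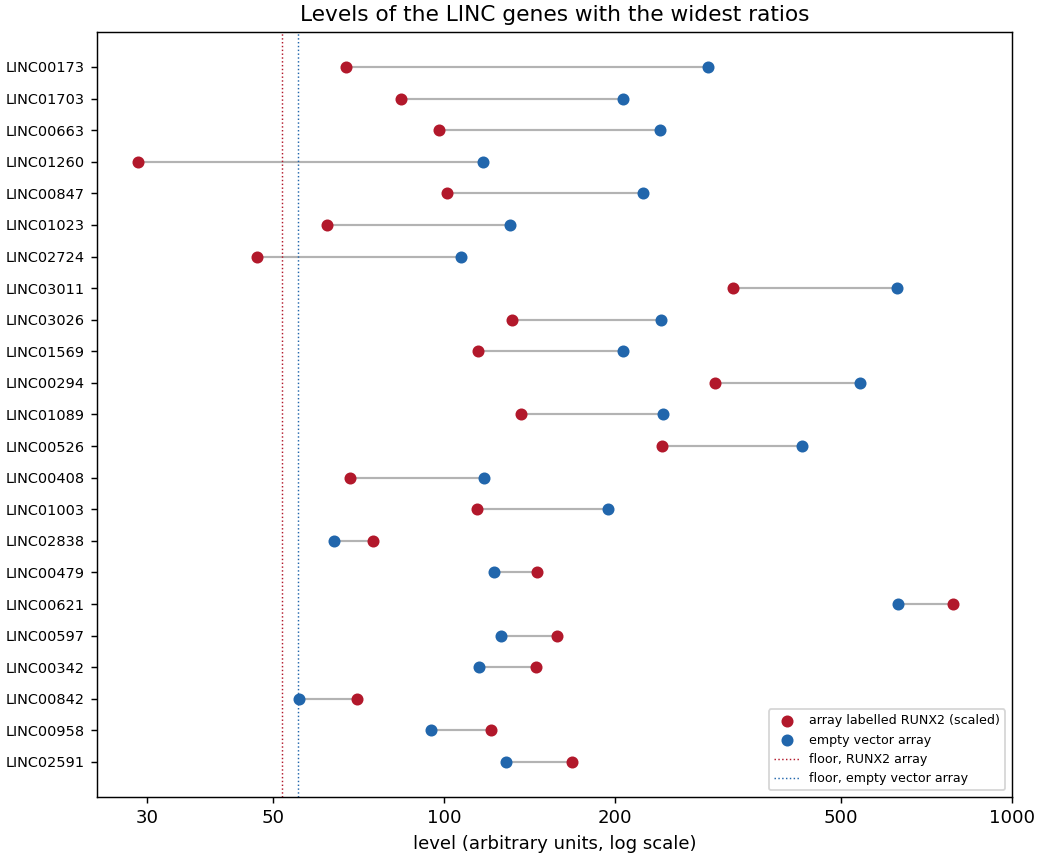
Levels (x axis, arbitrary units, log scale) of the LINC genes with the widest ratios on the array labelled RUNX2 (red) and the empty vector array (blue), from the lowest ratio at the top to the highest at the bottom, with each array's floor as a dotted line. In the upper 15 genes the red point lies left of the blue one, by up to 4.34-fold for LINC00173, and in the lower 8 it lies right of it, by up to 1.31-fold for LINC02591.

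A second tier of 8 members, all above the floor on both arrays, lay between 1.7-fold and 2-fold lower. LINC03011 was the brightest of them, at 323 on the array labelled RUNX2 and 628 on the empty vector array, 1.95-fold lower. LINC00294 read 300.4 on the array labelled RUNX2 and 540 on the empty vector array, and LINC00526 read 242 and 427 on the same arrays, 1.80-fold and 1.76-fold lower. LINC03026 and LINC01569 were 1.83-fold and 1.80-fold lower, LINC00408 was 1.72-fold lower and LINC01003 was 1.70-fold lower. LINC01089, also called LIMT and known from breast cells as a transcript that EGF lowers and that restrains invasion, was 1.78-fold lower. It read 137 on the array labelled RUNX2 and 243 on the empty vector array, and its second measured probe set gave -0.70 on the log2 scale beside -0.83. It is the member of these 8 with a second measured probe set, and both lay in the same direction.

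The upper end of the range was narrow, as read by the brightest probe set of each gene. LINC02591 had the highest ratio, 1.31-fold, with 168 on the array labelled RUNX2 and 128 on the empty vector array. LINC00958, a transcript studied in bladder and oral carcinoma, read 121 on the array labelled RUNX2 and 94.9 on the empty vector array, 1.27-fold. LINC00842 had 70.2 on the array labelled RUNX2 and 55.4 on the empty vector array, close to the floor. LINC00342 read 145 on the array labelled RUNX2 and 115 on the empty vector array, and its 3 measured probe sets had log2 ratios from 0.33 to 0.44. LINC00597 had a log2 ratio of 0.33, LINC00621 of 0.32, LINC00479 of 0.25 and LINC02838 of 0.23. These 8 log2 ratios lie between 0.23 and 0.39, beside a technical SD of 0.32 between probe sets of 1 LINC gene.

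The 6 brightest members went both ways, and none reached 1.5-fold in its brightest probe set. LINC01503 was the one member above a level of 1000, with 1702 on the array labelled RUNX2 and 2549 on the empty vector array, a log2 ratio of -0.58, just short of 1.5-fold lower. LINC00623 had 946 on the array labelled RUNX2 and 923 on the empty vector array, LINC00621 had 788 and 632, and LINC02256 had 587 and 760. These 3 were read by probe sets marked as open to cross-hybridisation, and each probe set may also read near-identical copies elsewhere in the genome. LINC02035 had 463 on the array labelled RUNX2 and 550 on the empty vector array, and LINC00662 had 478 and 516. In all, 9 members reached 500 on an array and 112 were below 200 on both.

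Of 30 LINC genes listed for published work in carcinoma or a known role, 17 were members, 7 had probe sets below the floor on both arrays and 6 had no probe set of their own. Their median log2 ratio was -0.14, 13 of the 17 lay below 0, and LINC00847 was the 1 member at least 2-fold lower, with 0 higher. Of all measured genes, 57.4% lay below 0, 1.47% were at least 2-fold lower and 1.41% higher. LINC00460, studied in head and neck carcinoma, was dim, at 63.8 on the array labelled RUNX2 and 75.9 on the empty vector array. LINC00520 had 80.7 on the array labelled RUNX2 and 82.6 on the empty vector array, and LINC00668 had 89.5 and 80.5. LINC01116 was brighter and near even, at 355 on the array labelled RUNX2 and 336 on the empty vector array. LINC00467, which has been reported to encode a mitochondrial peptide, had 181 on the array labelled RUNX2 and 243 on the empty vector array, with log2 ratios of -0.42 and -0.63 in its 2 probe sets. LINC01315 read 113 on the array labelled RUNX2 and 182 on the empty vector array, 1.61-fold lower.

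LINC00667 had 383 on the array labelled RUNX2 and 340 on the empty vector array, a log2 ratio of 0.17. LINC01128 had -0.18 in its brightest probe set but a bound of 0.17 and a ratio of 0.24 in its 2 other measured ones. Its direction is therefore not settled. LINC00312 had -0.29 and LINC01278 had a bound of -0.14. LINC00673, known for a role in PTPN11 turnover in the pancreas, was above the floor on the array labelled RUNX2 only, at 54.8 against 37.8 on the empty vector array. Since the floor of the empty vector array is the higher one, its bound came out at -0.01, and no direction can be read from it. LINC00963 had 176 on the array labelled RUNX2 and 144 on the empty vector array in a second probe set, a log2 ratio of 0.29. Its brightest probe set had 248 on the array labelled RUNX2 and 256 on the empty vector array. These last values were equal in every deposited digit before scaling. The same held for the members LINC01527 and LINC02012, and for 76 of all measured genes. Their log2 ratio of -0.05 is the scaling factor itself. How the authors' summary came to give equal values was not tested.

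Of the members, 26 had 2 or more measured probe sets, 64 probe sets in all. In 16 of these genes all probe sets lay below 0, in 1 all lay above 0, and in 9 they went both ways. The median range between the lowest and the highest log2 ratio of a gene was 0.25. LINC00662 had the widest range, from -0.70 to 0.42 over 5 probe sets, around -0.11 in its brightest, so its direction is not settled by these arrays. LINC00667 ranged from -0.16 to 0.63, and LINC02551 from -0.92 to -0.10. LINC00537, in contrast, gave -0.38 to -0.37 over 3 probe sets. The other 127 members had 1 measured probe set.

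**Figure D3:**
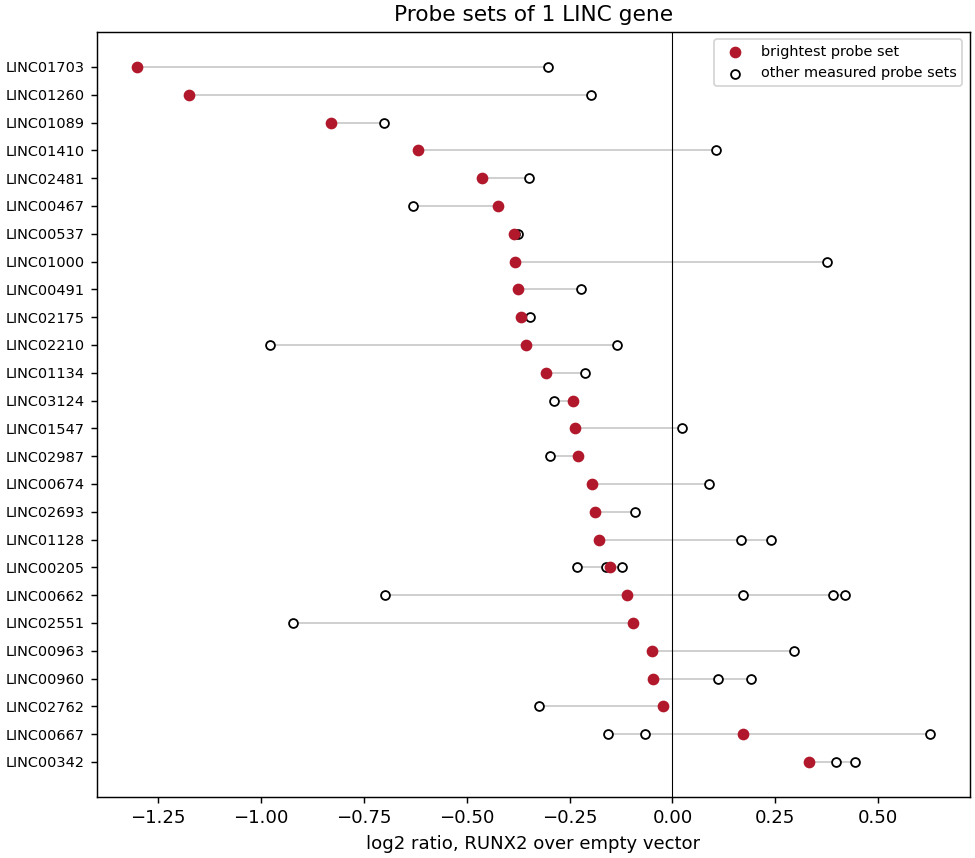
Log2 ratios (x axis, array labelled RUNX2 over empty vector array) of every measured probe set of the 26 LINC genes with 2 or more, with the brightest probe set in red and the others as open circles. LINC01703 has the lowest ratio in its brightest probe set, -1.30, LINC00662 has the widest range, and LINC00342 is the gene with all probe sets above 0.

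The downward shift of LINC genes was also present in other non-coding transcripts. The median log2 ratio was -0.22 over 153 LINC genes, -0.26 over 326 other long non-coding genes, -0.25 over 274 antisense genes and -0.05 over 11736 protein coding genes. At least 2-fold lower were 4.58% of LINC genes, 5.52% of the other long non-coding genes, 6.20% of antisense genes and 1.18% of protein coding genes. At least 2-fold higher were 0 LINC genes, 3 other long non-coding genes, 1 antisense gene and 173 protein coding genes, the last being 1.47% of their class. The SD of log2 ratios was 0.36 in LINC genes and 0.41 in protein coding genes. These are descriptions of the same 2 arrays, and nothing in them is particular to LINC genes.

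**Figure D4:**
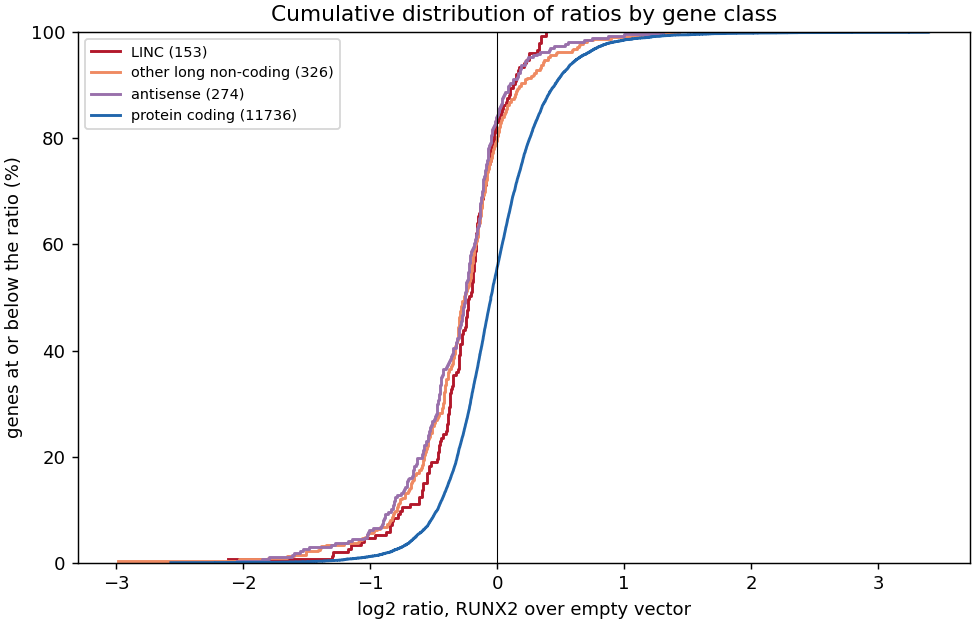
Cumulative share of genes (y axis, %) at or below a log2 ratio (x axis, array labelled RUNX2 over empty vector array) in 4 gene classes. The curves of LINC, other long non-coding and antisense genes run together to the left of the protein coding curve, with 83.0%, 80.1% and 83.9% of their genes below 0 against 55.6% of protein coding genes, and the LINC curve ends at 0.39.

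LINC genes were dim, with a median level of 89.6 over both arrays against 333 in protein coding genes, and among protein coding genes the dim ones had lower ratios. The classes were therefore also set side by side at like level. Under a level of 128 the median log2 ratio was -0.19 over 94 LINC genes and -0.14 over 2778 protein coding genes. From 128 to 256 it was -0.30 over 39 LINC genes and -0.03 over 2144 protein coding genes, and 4 of the 7 members at least 2-fold lower lay there. These were 10.3% of the LINC genes of that level, against 1.96% of protein coding genes. The share was 6.45% in the other long non-coding genes and 10.7% in antisense genes. At 256 or more the median log2 ratio was -0.38 over 20 LINC genes and -0.00 over 6814 protein coding genes. In this brightest class 5 LINC genes were at least 1.5-fold lower, or 25% of the class, against 5.87% of protein coding genes, 37.0% of the other long non-coding genes and 39.4% of antisense genes. The gap between LINC and protein coding medians was thus narrowest among the dim genes, where most LINC genes lie.

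Among other long non-coding RNAs with established names, 26 of 43 listed were measured, with a median log2 ratio of -0.23, 2 at least 2-fold lower and 1 higher, where 1.47% of all measured genes were lower and 1.41% higher. MIR210HG, the host of a hypoxia-induced microRNA, was 2.70-fold higher, at 193 on the array labelled RUNX2 and 71.7 on the empty vector array, with 0.68 on the log2 scale in its other measured probe set. MIR205HG, the host of an epithelial microRNA, was 2.03-fold lower, at 385 on the array labelled RUNX2 and 780 on the empty vector array. EPB41L4A-AS1 was also 2.03-fold lower in its brightest probe set, with 0.61 on the log2 scale in another. NORAD, a gene that once carried a LINC number, had 6807 on the array labelled RUNX2 and 8895 on the empty vector array, above every LINC gene measured. MALAT1, a nuclear transcript abundant in most cells, had a log2 ratio of 0.04.

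The name says intergenic, and the RefSeq gene table of assembly GRCh38.p14 held 150 of the 153 members, all as long non-coding RNA. Of these, 17 overlapped a protein coding gene of the table and 82 overlapped no other gene. The nearest coding gene beside the member was measured for 89 members. Its median log2 ratio was -0.06, 50 of 89 lay below 0, 2 reached 2-fold higher and 0 reached 2-fold lower. Of all measured protein coding genes, 55.6% lay below 0, 1.47% were at least 2-fold higher and 1.18% lower. Across these 89 pairs the log2 ratios of LINC gene and nearest coding gene had Pearson's r of 0.09 and Spearman's rho of 0.09. All pairs come from the same 2 arrays and are no independent replicates. The nearest coding genes of the 15 members at least 1.5-fold lower had a median of -0.14, with 9 of 15 below 0, against -0.06 and 41 of 74 for the others. No member stood beside a gene of the interferon-stimulated list used here.

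**Figure D5:**
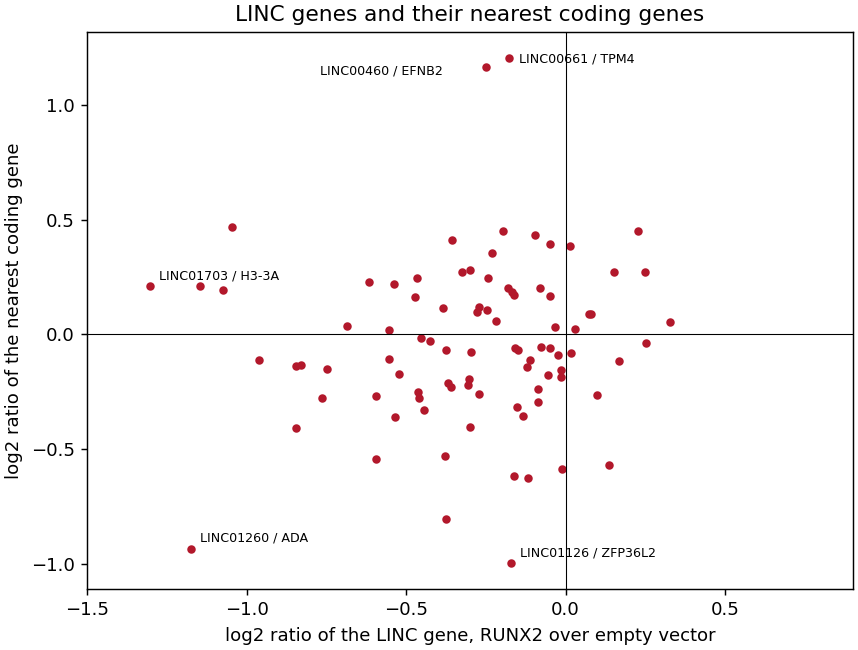
Log2 ratio of the nearest coding gene (y axis) against that of the LINC gene (x axis), both array labelled RUNX2 over empty vector array, for the 89 members whose nearest coding gene was measured. The points scatter around the horizontal zero line at all LINC ratios, with LINC01260 beside ADA at the lower left and EFNB2 and TPM4 as the coding genes above 1.

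A few loci are given by name, chosen after their values were seen. LINC01260 lies between ADA and CCN5, and all 3 were lower. ADA, adenosine deaminase, had 2794 on the array labelled RUNX2 and 5338 on the empty vector array, a log2 ratio of -0.93. CCN5, a matricellular gene, had 70.0 on the array labelled RUNX2 and 196 on the empty vector array, a log2 ratio of -1.48. LINC00847 overlaps the zinc finger gene ZFP62 and the long non-coding gene HEIH, and these had -0.63 and -0.79 beside -1.15 for LINC00847, while MGAT1, the nearest coding gene outside it, had 0.21. LINC01703, at -1.30, lies between the histone gene H3-3A, the nearer, with 0.21, and ACBD3 with -0.45. LINC01023, at -1.07, lies between the tyrosine kinase gene FER with 0.19 and FBXL17 with 0.16. LINC02724, with a bound of -1.05, lies between the kinase gene RPS6KA4 with 0.47 and SLC22A11 with a bound of -0.14.

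At other loci the coding gene and the LINC gene differed in size or direction. EFNB2, an ephrin ligand beside LINC00460, had 1809 on the array labelled RUNX2 and 808 on the empty vector array, a log2 ratio of 1.16, beside -0.25 for LINC00460. TPM4, a tropomyosin gene beside LINC00661, had 1.21 beside -0.18 for LINC00661. ZFP36L2, which encodes an RNA decay factor and lies next to LINC01126, had 507 on the array labelled RUNX2 and 1012 on the empty vector array, just short of 2-fold lower, beside -0.17 on the log2 scale for LINC01126. Head-to-head pairs, with the start of a coding gene on the other strand within 1000 bases upstream, were found for 3 of 110 members whose strand is known. These were LINC01134 with C1orf174 (-0.31 and -0.22), LINC00205 with POFUT2 (-0.15 and -0.32) and LINC00685 with GTPBP6 (0.17 and -0.12).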

How the data were processed

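Total RNA of Ca9-22 cells with a RUNX2 or an empty vector was labelled with biotin as cRNA and read on 1 Affymetrix array for each vector, as the labels' protocols state. For every probe set the authors deposited a linear intensity. MAS5 is named in the submitters' processing notes, with no version or scaling target, and the genome build is not given in the sources used here. Levels are therefore in arbitrary units, and signal over background limits the dim genes.

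Intensities of the array labelled RUNX2 were scaled by 0.966, which equalised the 2% trimmed means over 54613 probe sets, without 62 controls. Values below the median of their array were set to that median. Symbols came from the platform annotation and were looked up by Entrez ID in RefSeq (GRCh38.p14), which changed 0 LINC symbols. A probe set annotated with more than 1 symbol was given no gene name. Named members were those at least 2-fold different, the next 8 in each direction above both floors, the 6 brightest, those with probe sets over 1 apart on the log2 scale, and a list of published LINC genes. The other loci were named after their values were seen. The members and lists were chosen with earlier results of these data known. Alternatives covered scaling, floor, probe set choice and threshold. Python 3.11.15, pandas 2.3.3 and statsmodels 0.14.6 were used, and the scripts were tested on simulated arrays.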

Additional observations from a re-analysis of the deposited data

How the results depend on the processing

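The count of 0 LINC genes at least 2-fold higher held under every alternative run, and so did a median below 0. The count of 7 at least 2-fold lower moved with the threshold and with how dim values were treated. Scaling and probe set choice moved it too. It was 6 with deposited values unscaled, quantile normalization or a smooth correction by level (loess), and 5 with equal medians. LINC02724 fell short of 2-fold under each of these scalings. The mean over probe sets gave 5, without LINC01260 and LINC01703. Leaving out probe sets open to cross-hybridisation gave 6, without LINC00663. Under these settings 1.08% to 1.66% of all measured genes were lower. A 25th percentile floor gave 424 measured LINC genes, of which 11 were lower, among them all 7, where 1.39% of all genes were lower. A 75th percentile floor gave 41, of which 0 were lower, with fewer genes measured, while 0.955% of all genes still were. With no floor on the ratio, 10 of 153 members were lower, among them all 7, where 1.74% of all genes were lower. An offset in place of the floor, which narrows the ratios of dim genes, left 2, LINC00173 and LINC01260, and 0.715% of all genes. Thresholds of 1.5-fold and 4-fold gave 21 and 1. Of all measured genes, 6.86% were at least 1.5-fold lower, and their share at 4-fold was not counted. The median log2 ratio of LINC genes moved to -0.12 with equal medians, which shifted the median of all genes to 0.03. The gap between LINC and protein coding medians was -0.17 and stayed between -0.20 and -0.13 under the alternatives. Of 447 values of named genes under alternatives, 427 moved by less than 0.28 on the log2 scale, the SD between probe sets of 1 gene over all genes, and 20 by more. Many of the 447 could not move by design, such as those of genes above both floors when the floor was lowered or removed. Genes that dropped out under a setting were not counted, so the 427 are no measure of stability. Without probe sets open to cross-hybridisation LINC01128 turned to 0.24 and LINC00963 to 0.29, and with the lower floor LINC00673 turned to 0.54. Of these values, 0 belonging to a gene at least 2-fold different changed sign. No paired analysis was possible because each group holds 1 array.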
